A study of Mus musculus with 6 samples.

Results

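The genes described here are the chemokines and chemokine receptors on the array, chosen by gene name: all Ccl, Cxcl, Cx3cl1 and Xcl1 ligands and all Ccr, Cxcr, Ccrl and Darc receptors. They number 56 of 34788 gene names, with 35 ligands and 21 receptors, and are read by 72 probes. Where a gene had several probes, the one with the highest mean signal was used. The names are those of the array design, in which Darc is the gene now called Ackr1, Cxcr7 is Ackr3 and Ccrl1 is Ackr4.

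Chemokines are small secreted proteins that guide migrating cells along concentration gradients, and they act through G protein-coupled receptors on the target cell. Ligands fall into CC, CXC, CX3C and XC classes by the spacing of their first cysteines, and atypical receptors bind ligands without G protein signalling and remove or shape them. In the adult brain a few ligands, such as Cx3cl1 and Cxcl12, are made continuously by neurons and other resident cells, while most inflammatory ligands are made on demand by glia, vessel cells and macrophages.

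The arrays compare PAMAM dendrimers, branched polyamidoamine polymers studied as drug and gene carriers, with saline, each given once into the nose of male BALB/c mice of 8 weeks. PAMAM was dosed at 0.15 mg/kg, and olfactory bulb, hippocampus and cortex were collected 24 h after the dose. Each of the 6 groups (PAMAM and saline olfactory bulb, PAMAM and saline hippocampus, PAMAM and saline cortex) has 1 array, hybridised with a pool of RNA from 6 independent experiments. Each PAMAM minus saline difference thus compares 2 arrays and has no replicate check.

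Levels are given as log2 of the background-corrected spot intensity minus the 75th percentile of the same array, so 0 is the level of a fairly bright probe. A gene was called detected, or read, where Agilent's software set the probe well above background. Below background here means only that this mark was not set, not that the RNA was absent. Probes differ in binding, so levels are compared between arrays for a gene, not between genes. The regional labels fitted their markers: 16 of 16 olfactory bulb markers were higher in the bulb than in the mean of the other regions in PAMAM as in saline tissue, and the same held for 12 of 12 hippocampal and 8 of 10 cortical markers. Between 31477 and 36219 of 55681 probes were detected on an array and 0 were saturated. All arrays share a slide and a scan. The PAMAM and saline arrays of the bulb lie in 1 slide row and those of the cortex in the other, while the hippocampal pair is split between the rows.

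Of the 56 genes, 21 were detected on all 6 arrays, 14 on some and 21 on none. In the olfactory bulb 33 were detected on both arrays (58.9%, against 66.5% of all genes), in the hippocampus 23 (41.1%, against 63.8%) and in the cortex 21 (37.5%, against 61.7%). The ligands detected everywhere were Cx3cl1, Cxcl11, Cxcl12, Cxcl14, Cxcl16, Ccl1, Ccl5, Ccl6, Ccl9, Ccl17, Ccl19, Ccl25, Ccl27a and Ccl28. The receptors detected everywhere included Ccr6, Ccr8, Cxcr6 and the atypical receptors Ccrl2, Cxcr7 and Darc. These lists hold for the used probe, and some other probes disagreed. The other probe was well above background on 1 array for Ccl1, on 2 for Cxcr6 and on 0 for Ccr8. A further probe of Ccl19 was read on 3 arrays and a further probe of Ccl25 on 0. The neutrophil attractants Cxcl1, Cxcl2 and Cxcl3 and their receptors Cxcr1 and Cxcr2 were not well above background on any array. Nor were Ccr2 and Ccr1, which monocytes use, the eosinophil attractants Ccl11 and Ccl26, the B cell pair Cxcl13 and Cxcr5, or Xcl1. The remaining genes below background on every array were Ccl7, Ccl20, Ccl22, Ccr1l1, Ccr4, Ccrl1, Cxcl9, Cxcl15 and Cxcl17.

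A group of 6 ligands was detected on both olfactory bulb arrays and on no other array: Ccl2, Ccl3, Ccl4, Ccl8, Cxcl5 and Cxcl10, 6 of the 56 genes described here, where 1.42% of all 34788 genes had this pattern. No member had that pattern for the hippocampus (0.264% of all genes) or the cortex (0.106%). Ccl2 and Ccl8 attract monocytes, Ccl3 and Ccl4 attract macrophages and T cells, Cxcl5 attracts neutrophils through Cxcr2, and Cxcl10 is an interferon-induced ligand of Cxcr3. All 6 were detected with PAMAM and with saline alike. The lowest level marked well above background differed between arrays. In the bulb it was -5.34 (PAMAM) and -4.87 (saline). In the hippocampus it was -4.56 (PAMAM) and -5.05 (saline), and in the cortex -4.54 (PAMAM) and -4.455 (saline). Ccl4, at -4.61 on the PAMAM bulb array, lay below its own unmarked level of -4.53 on the saline cortex array. Detection in the bulb alone is thus not in itself a higher level there. The heat map of levels by array shows these 6 rows crossed out on all hippocampal and cortical arrays.

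**Figure D1:**
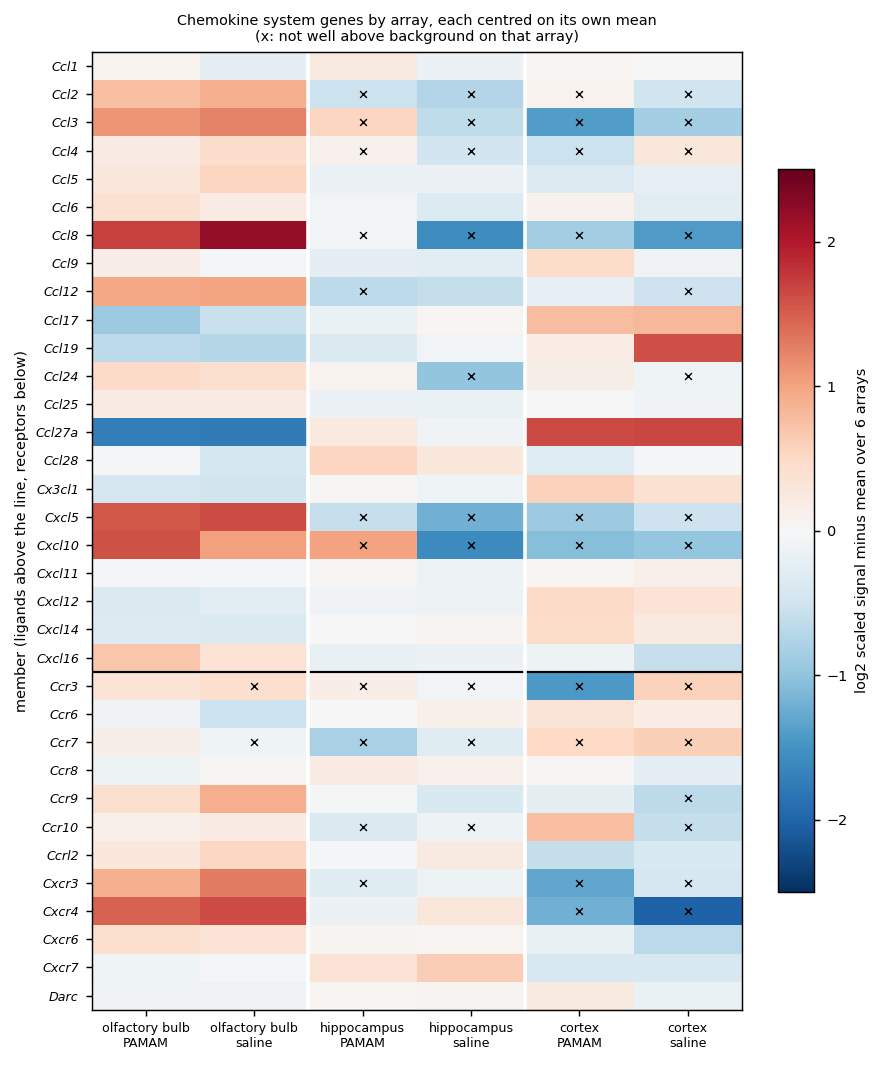
Level of 34 of the 35 genes detected on at least 1 array (rows, ligands above the black line and receptors below it) on the 6 arrays (columns), as log2 scaled signal minus the gene's own mean over the arrays. Crosses mark arrays where the probe was not well above background; Ccl27a is lowest in the bulb and highest in the cortex, while Ccl8, Cxcl5 and Cxcr4 are highest in the bulb.

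Promoter sequences, taken from RefSeq on build GRCm38.p6, are shown for Cxcl10, which was read in the bulb alone, and for Cxcl1, Cxcl2 and Cxcl3, which were read nowhere, because all 4 are textbook targets of inflammatory signalling. Promoters were found for 40 of the genes (46 promoters, each from 250 bases before to 50 bases after a gene start). The Cxcl10 stretch is chr5:92348890-92349139 on the minus strand and runs up to the gene start. Capitals mark, in order, the core of the interferon-stimulated response element (TTTC, any 2 bases, then TTTC, on either strand) and the matches to the NF-κB consensus, of which the last 2 overlap.

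Cxcl10: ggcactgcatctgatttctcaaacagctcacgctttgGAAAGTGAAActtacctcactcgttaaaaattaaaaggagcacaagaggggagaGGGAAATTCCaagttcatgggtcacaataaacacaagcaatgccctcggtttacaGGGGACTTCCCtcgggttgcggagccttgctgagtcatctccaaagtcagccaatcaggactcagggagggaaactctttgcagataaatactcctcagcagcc

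In the neighbouring Cxcl1, Cxcl2 and Cxcl3 promoters the same 11 bases matched the NF-κB consensus (in capitals, 2 overlapping matches each), within stretches of 71 bases on the plus strand at chr5:90891144-90891214, chr5:90903772-90903842 and chr5:90785998-90786068.

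Cxcl1: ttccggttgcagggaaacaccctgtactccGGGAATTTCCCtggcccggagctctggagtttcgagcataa
Cxcl2: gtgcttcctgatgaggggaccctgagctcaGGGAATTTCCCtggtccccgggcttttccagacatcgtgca
Cxcl3: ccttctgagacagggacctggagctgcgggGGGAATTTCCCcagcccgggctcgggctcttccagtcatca

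Set side by side without gaps, the stretches differed around these 11 bases. Over all 71 positions, the 11 included, Cxcl1 shared 33 with Cxcl2 and 32 with Cxcl3. In all, 12 of the 46 promoters held an NF-κB match (26.1%), against 2779 of 32851 promoters of all genes (8.46%). The interferon core stood in 3 of the 46 (6.52%), those of Cxcl10, Ccl19 and Cxcl14, against 1131 of all (3.44%). A match describes letters in this window and says nothing of binding. Genes with an NF-κB match ranged from those read on every array (Ccl1, Ccl9, Ccl27a, Ccr6, Ccrl2) to those read on none (Cxcl1, Cxcl2, Cxcl3, Ccl20, Ccr1).

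Among the ligands, Ccl27a, Cx3cl1 and Ccl17 were lowest in the olfactory bulb, intermediate in the hippocampus and highest in the cortex. Regions were compared with an additive limma fit of region and treatment over 25673 genes, in which the PAMAM and the saline array of a region stand in as its pair. Calls are at a Benjamini-Hochberg adjusted p below 0.05 over all genes, and the SE is that of the fit. Nothing in the labels says whether the regions came from the same mice, so a p-value does not measure the spread between animals. It rests on the gene's spread between these arrays, drawn towards that of genes of like brightness. That spread also holds any treatment effect that differs between regions. In bulk tissue, fewer cells of a type and less RNA per cell cannot be told apart.

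Ccl27a, a ligand of Ccr10 best known from skin, was at 0.96 (PAMAM) and 0.94 (saline) in the olfactory bulb, at 2.92 (PAMAM) and 2.59 (saline) in the hippocampus and at 4.34 (PAMAM) and 4.36 (saline) in the cortex. The values of the 3 regions did not overlap. By limma it was lower in the bulb than in the hippocampus by -1.81 ± 0.10 (log2, SE, adjusted p = 1.34e-05) and than in the cortex by -3.41 ± 0.10 (adjusted p = 1.08e-06), and lower in the hippocampus than in the cortex by -1.59 ± 0.10 (adjusted p = 0.000205). Its other probes gave the same order, with bulb minus cortex differences of -3.34 and -3.47. The probe that gave -3.47 shares 20 bases with a probe of Gm13308, and the locus holds near-identical copies, so which copy is read is uncertain. Ccr10, its receptor, was detected on both bulb arrays and on the PAMAM cortex array only.

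Cx3cl1, or fractalkine, is the neuronal ligand of the microglial receptor Cx3cr1. It was at 5.89 (PAMAM) and 5.83 (saline) in the bulb, at 6.34 (PAMAM) and 6.19 (saline) in the hippocampus and at 6.88 (PAMAM) and 6.67 (saline) in the cortex, again with no overlap between regions. The bulb was below the hippocampus by -0.40 ± 0.06 (limma, adjusted p = 0.00206) and below the cortex by -0.92 ± 0.06 (adjusted p = 3.97e-05), and the hippocampus below the cortex by -0.52 ± 0.06 (adjusted p = 0.00246). Without the PAMAM olfactory bulb array the call of bulb against hippocampus was lost (adjusted p = 0.0568), and without a variance trend that of hippocampus against cortex (adjusted p = 0.0718). Cx3cr1 itself was detected on all 6 arrays, at 2.30 (PAMAM) and 2.35 (saline) in the bulb, 2.38 (PAMAM) and 2.51 (saline) in the hippocampus, and 2.78 (PAMAM) and 2.61 (saline) in the cortex. It was lower in the bulb than in the cortex by -0.37 (adjusted p = 0.0104), and its difference between bulb and hippocampus, -0.12, did not pass (adjusted p = 0.306).

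Ccl17, a Ccr4 ligand made by dendritic cells, had the same order: -1.35 (PAMAM) and -1.0 (saline) in the bulb, -0.61 (PAMAM) and -0.38 (saline) in the hippocampus, and 0.33 (PAMAM) and 0.40 (saline) in the cortex. It was lower in the bulb than in the hippocampus by -0.68 (limma, adjusted p = 0.00155) and than in the cortex by -1.54 (adjusted p = 3.07e-05), and lower in the hippocampus than in the cortex by -0.86 (adjusted p = 0.00199). Without a variance trend the last call was lost (adjusted p = 0.0534). Cxcl14, a ligand of constitutive epithelial and neuronal expression, was at 2.97 (PAMAM) and 2.95 (saline) in the bulb, 3.30 (PAMAM) and 3.38 (saline) in the hippocampus, and 3.77 (PAMAM) and 3.53 (saline) in the cortex. Bulb was below cortex by -0.69 (adjusted p = 0.000575) and below hippocampus by -0.38 (adjusted p = 0.00956), the second call being lost without the saline hippocampus array (adjusted p = 0.114) and also without the PAMAM bulb array.

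Cxcl12, the ligand of Cxcr4 and Cxcr7, has several transcripts with different ends, and its probes disagreed. The brighter probe (the end of chr6:117131227-117131286, mm9) was at 2.26 (PAMAM) and 2.34 (saline) in the bulb, 2.53 (PAMAM) and 2.49 (saline) in the hippocampus, and 3.1 (PAMAM) and 2.96 (saline) in the cortex. On it the bulb was below the cortex by -0.73 (limma, adjusted p = 0.000219) and the hippocampus below the cortex by -0.52 (adjusted p = 0.00407). The other probe, for an upstream end at chr6:117125026-117125085, turned the order round, with bulb minus cortex at 0.39 and hippocampus minus cortex at 0.30. With the median over both probes neither call stood (adjusted p = 0.339 and 0.669), and the second was also lost without the saline hippocampus array (adjusted p = 0.0572). Of each 60-base probe, the first 30 bases are shown to identify it.

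Cxcl12 probe at 117131227: aggagaaggcagcttcctatatgcagcgtg
Cxcl12 probe at 117125026: gctgtaaacctcctaccgtatgtgggaatt

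Cxcl11, an interferon-induced ligand of Cxcr3, gave a high signal on every array with its used probe. The used probe was at 8.6 (PAMAM) and 8.61 (saline) in the bulb and 8.68 (PAMAM) and 8.52 (saline) in the hippocampus. In the cortex it was at 8.71 (PAMAM) and 8.79 (saline). The other probe read far lower, between 3.56 (PAMAM hippocampus array) and 3.90 (PAMAM bulb array). Cxcl11 did not pass the test in any contrast between regions. RefSeq lists Cxcl11 as a transcribed pseudogene in its C57BL/6J reference. The used probe shares runs of at least 20 bases with probes of 7 other genes, 5 on the same strand and 2 on the opposite one. It also holds 17 words of 15 letters that occur in 10 or more RefSeq promoters, up to 26 for a single word, against a median of 1 and a highest value of 27 (Cxcr7) over the 70 probes of the other genes described here. Whether its signal comes from Cxcl11 was not tested. The stretch below, bases 14 to 43 of the probe, is in capitals because every base lies in such a repeated word; the first 30 bases of the other probe hold none.

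Cxcl11 probe at chr5:92788567-92788626, minus strand: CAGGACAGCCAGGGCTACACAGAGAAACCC
Cxcl11 probe at chr5:92788640-92788699, minus strand: tatacaccttaatttcagcacttgaaaggc

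Ccl19, a homing ligand of Ccr7 in lymphoid tissue, also had probes that disagreed. The used probe was at -2.81 (PAMAM) and -2.86 (saline) in the bulb, -2.52 (PAMAM) and -2.21 (saline) in the hippocampus, and -1.96 (PAMAM) and -0.55 (saline) in the cortex. It was lower in the bulb than in the cortex by -1.58 (limma, adjusted p = 0.00574), which the median over its probes did not keep (adjusted p = 0.30). A second probe, starting at 42248630, was at -2.42 (PAMAM) and -2.47 (saline) in the bulb, -2.68 (PAMAM) and -2.79 (saline) in the hippocampus, and -2.52 (PAMAM) and -2.68 (saline) in the cortex. On this probe both bulb values lay above all others, the opposite of the used probe, and hippocampus and cortex met at -2.68. The last probe was read on both bulb arrays and the PAMAM cortex array only. RefSeq lists 3 Ccl19 pseudogenes and the protein-coding Gm2023 on chromosome 4 beside Ccl19, so which copy each probe reads is uncertain. The first 30 bases of each 60-base probe, on the plus strand of mm9, are as follows.

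Ccl19 probe at chr4:42248526-42248585: aagctcacttgcacttggctcctgaacccc
Ccl19 probe at chr4:42248630-42248689: ttcttgcgcacacagtctctcaggctcact
Ccl19 probe at chr4:42250105-42250164: acctccagaccagctctgggtggatcgcat

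**Figure D2:**
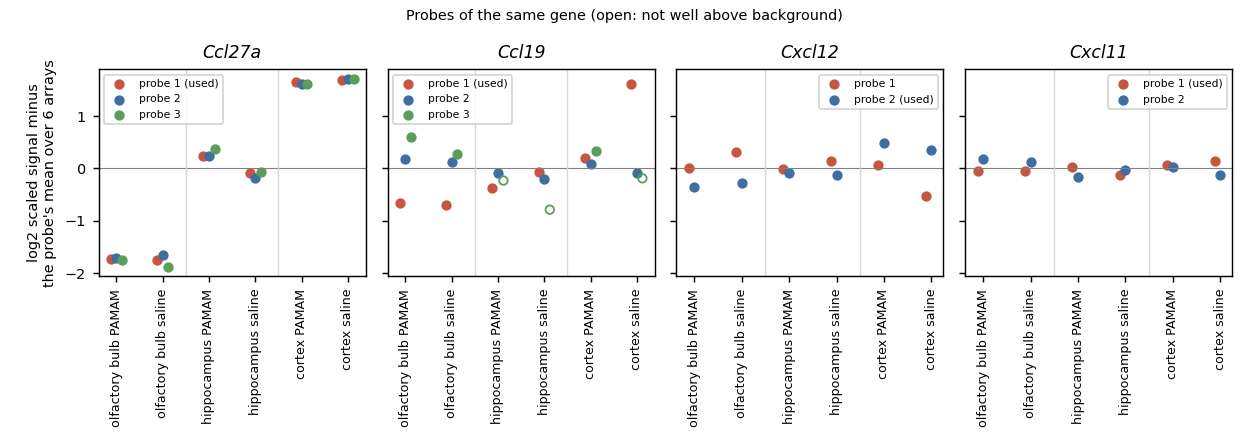
Log2 scaled signal of each probe of Ccl27a, Ccl19, Cxcl12 and Cxcl11 on the 6 arrays, minus that probe's own mean over the arrays; open circles are not well above background. The 3 Ccl27a probes move together, whereas the used Ccl19 probe alone has a high saline cortex value and the Cxcl12 probes order the regions differently.

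The ligands that passed the test as higher in the olfactory bulb were mostly near background elsewhere. Cxcl5 was at -2.5 (PAMAM) and -2.43 (saline) in the bulb and below background elsewhere, which makes it at least 5.07-fold higher in the bulb than in the hippocampus (limma, adjusted p = 0.000952) and at least 4.09-fold higher than in the cortex (adjusted p = 0.00128). For such a bound, each array below background was given the lowest level that passed as well above background on it, or the probe's own level where that was higher. The p-values come from the fitted levels, not from these bounds. Ligands read in the bulb alone entered the fit only through it, so their p-values are no support for a higher bulb level. Ccl8, at -3.40 (PAMAM) and -2.92 (saline) in the bulb, was at least 3.13-fold higher than in the hippocampus (adjusted p = 0.00742) and at least 2.53-fold higher than in the cortex (adjusted p = 0.00425). Both Ccl8 calls were lost without the saline bulb array (adjusted p = 0.158 and 0.102), and the second also with normexp background correction (adjusted p = 0.0762).

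Ccl12, a monocyte attractant of rodents, was at -2.60 (PAMAM) and -2.60 (saline) in the bulb, and was read on 1 hippocampal array (saline, -4.17) and 1 cortical array (PAMAM, -3.79). It passed against the hippocampus (1.60 ± 0.23, adjusted p = 0.00130) and the cortex (1.34 ± 0.23, adjusted p = 0.00282) and did so in every fit that left out an array. Ccl2 was at -4.03 (PAMAM) and -3.89 (saline) in the bulb, at least 1.80-fold above the hippocampus (adjusted p = 0.0240), a call lost in 4 of the 6 fits that left out an array, with an adjusted p up to 0.247 without the saline bulb array. Its probe is spotted 10 times on each array, and those spots had an SD between 0.18 and 0.59. Ccl3 and Cxcl10 passed against the cortex, by at least 1.39-fold (adjusted p = 0.0150) and at least 1.28-fold (adjusted p = 0.0401), and both were lost in 3 of the 6 fits that left out an array, those without either bulb array and without the PAMAM cortex array (adjusted p up to 0.149 and 0.249). Ccl4, at -4.61 (PAMAM) and -4.36 (saline) in the bulb, passed in no contrast.

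Cxcl16, a transmembrane ligand of Cxcr6, was at -2.64 (PAMAM) and -2.96 (saline) in the bulb, -3.51 (PAMAM) and -3.47 (saline) in the hippocampus, and -3.46 (PAMAM) and -3.90 (saline) in the cortex. The bulb passed as higher than the hippocampus by 0.69 (limma, adjusted p = 0.0393) and than the cortex by 0.88 (adjusted p = 0.0143), calls lost in 4 and 3 of the 6 fits that left out an array, with an adjusted p up to 0.264 without the PAMAM hippocampus array and up to 0.133 without the PAMAM bulb array. Ccl25, a ligand of Ccr9, was at 0.54 on both bulb arrays, 0.19 (PAMAM) and 0.18 (saline) in the hippocampus, and 0.33 (PAMAM) and 0.26 (saline) in the cortex, and Ccl6, a rodent macrophage ligand, lay between -3.11 and -2.40 on all arrays. Ccl25 (0.35 over the hippocampus and 0.24 over the cortex), Ccl6 (0.49 over the hippocampus) and Ccl5 (0.68 over the cortex) passed at adjusted p between 0.00892 and 0.0478, and each of these calls was lost in at least 4 of the 6 fits that left out an array, among them both that left out a bulb array (adjusted p up to 0.292, for Ccl6 without the saline bulb array). Ccl1, Ccl9 and Ccl28 were detected on all arrays, between -4.24 and -2.83, and passed in no contrast between regions.

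Among the receptors, Cxcr4, the signalling receptor for Cxcl12, was highest in the bulb. It was at -2.18 (PAMAM) and -2.03 (saline) in the olfactory bulb and at -3.81 (PAMAM) and -3.38 (saline) in the hippocampus, and was not well above background on either cortical array. It was higher in the bulb than in the hippocampus by 1.49 ± 0.34 (limma, adjusted p = 0.0102), at least 5.24-fold higher in the bulb than in the cortex (adjusted p = 0.000289) and at least 1.87-fold higher in the hippocampus than in the cortex (adjusted p = 0.0173). The first call was lost in 3 of the 6 fits that left out an array (either bulb array or the PAMAM hippocampus array, adjusted p up to 0.106) and the last without the saline hippocampus array (adjusted p = 0.165). The bulb against cortex call passed in each of the fits that left out an array.

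Cxcr7, the atypical receptor that takes up Cxcl12, followed another order: -0.44 (PAMAM) and -0.38 (saline) in the bulb, 0.01 (PAMAM) and 0.30 (saline) in the hippocampus, and -0.72 on both cortical arrays. The bulb was below the hippocampus by -0.56 ± 0.10 (adjusted p = 0.00375) and above the cortex by 0.32 ± 0.10 (adjusted p = 0.0384), and the hippocampus was above the cortex by 0.88 ± 0.10 (limma, adjusted p = 0.00183). The first call was lost without the saline hippocampus array (adjusted p = 0.0554) and the second without either bulb array or the saline cortex array (adjusted p up to 0.222). The last was lost without a variance trend (adjusted p = 0.0538). Cxcl12 on its brighter probe was thus highest in the cortex, the region where Cxcr4 was below background and Cxcr7 lowest.

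Cxcr3, the receptor of activated T cells for Cxcl10 and Cxcl11, was at -3.38 (PAMAM) and -2.98 (saline) in the bulb and was read elsewhere only on the saline hippocampus array, at -4.39. It passed as higher in the bulb than in the hippocampus (1.30, adjusted p = 0.0156) and at least 2.49-fold higher than in the cortex (limma, adjusted p = 0.00246); the first call was lost without either bulb array or the saline hippocampus array (adjusted p up to 0.145). Ccr9, a gut-homing receptor, was at -3.20 (PAMAM) and -2.68 (saline) in the bulb, -3.65 (PAMAM) and -3.99 (saline) in the hippocampus, and -3.84 on the PAMAM cortex array alone. It passed against the hippocampus (0.88, adjusted p = 0.0473) and the cortex (1.11, adjusted p = 0.0191), and lost both calls without the saline bulb array (adjusted p = 0.452 and 0.242). The first was also lost without either hippocampal array and the second without the saline cortex array. Normexp background correction, the median over probes and no variance trend each lost both calls. Quantile normalisation lost the first as well.

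Ccrl2, which binds chemerin, was at -2.94 (PAMAM) and -2.68 (saline) in the bulb, -3.24 (PAMAM) and -2.97 (saline) in the hippocampus, and -3.80 (PAMAM) and -3.58 (saline) in the cortex. It was higher in the bulb than in the cortex by 0.88 (limma, adjusted p = 0.00734), a call lost without either bulb array (adjusted p up to 0.0736). Cxcr6 was higher in the bulb than in the cortex by 0.80 (adjusted p = 0.0194, or up to 0.158 without either bulb array or the saline cortex array), and its values ran between -3.91 and -2.85. Ccr6, the receptor for Ccl20, was at -0.36 (PAMAM) and -0.82 (saline) in the bulb, -0.28 (PAMAM) and -0.15 (saline) in the hippocampus, and 0.05 (PAMAM) and -0.10 (saline) in the cortex. It was lower in the bulb than in the cortex by -0.56 (adjusted p = 0.0141, or 0.129 without the saline bulb array). Darc, the Duffy antigen receptor of red cells and venules, and Ccr8 passed in no contrast.

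Counted over the 35 genes tested, 10 passed as higher and 5 as lower in the bulb than in the hippocampus, where 17.9% and 24.5% of all genes tested passed. Against the cortex, 14 were higher and 7 lower in the bulb (all genes 17.4% and 27.4%). Between hippocampus and cortex 2 were higher and 4 lower (all genes 5.86% and 8.25%). The median difference of the 35 was 0.33 for bulb minus hippocampus, where that of all genes was -0.04, 0.32 for bulb minus cortex (all genes -0.04) and -0.11 for hippocampus minus cortex (all genes -0.03). With normexp background correction, Ccl3, Ccl5, Ccl8, Ccr9, Ccrl2, Cxcl10, Cxcl16 and Cxcr6 lost their calls against the cortex. Ccl2, Ccl6, Ccr9 and Cxcl16 lost theirs against the hippocampus, and Cxcr4 its call between hippocampus and cortex. Without a variance trend, Ccl19, Ccl25, Ccr6, Ccr9, Cxcl10 and Cxcr7 lost theirs against the cortex. So did Ccr9, Cxcl14 and Cxcr4 against the hippocampus, and all but Ccl27a between hippocampus and cortex. Quantile normalisation lost the calls of Ccl5 and Cxcr7 against the cortex, and of Ccl6, Ccr9, Cxcl14 and Cxcl16 against the hippocampus. The median over probes lost those of Ccl19, Ccl25, Ccr9, Cxcl10, Cxcl12 and Cxcr6 against the cortex. It also lost those of Ccl6, Ccl25 and Ccr9 against the hippocampus, and of Cxcl12 between hippocampus and cortex. The 21 genes below background everywhere were not tested. Genes read in the bulb alone, Cxcl5 among them, entered the fit only through it. These medians and counts, and the p-values of such genes, are therefore no support for a direction. Over the 21 genes detected on all 6 arrays the medians were negative, as were those of all such genes. The median was -0.21 for bulb minus hippocampus (all such genes -0.06) and -0.11 for bulb minus cortex (-0.08). It was -0.11 for hippocampus minus cortex (-0.03). A fit on genes detected on all arrays called 3 of the 21 higher and 6 lower in the bulb than in the hippocampus (all such genes 20% and 29.1%). It called 6 higher and 7 lower than in the cortex (19% and 32.7%). In the hippocampus it called 1 higher and 5 lower than in the cortex (6.64% and 10.2%). That fit left out genes below background on some array, such as Cxcl5, Ccl12, Cxcr3 and Cxcr4, so their calls were not tried in it. Of the 42 calls, 18 stood in each of the 6 fits that left out an array and 13 in every alternative tried, among them those of Ccl27a in all 3 contrasts and of Cxcl5, Ccl12 and Ccl17 against both other regions.

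**Figure D3:**
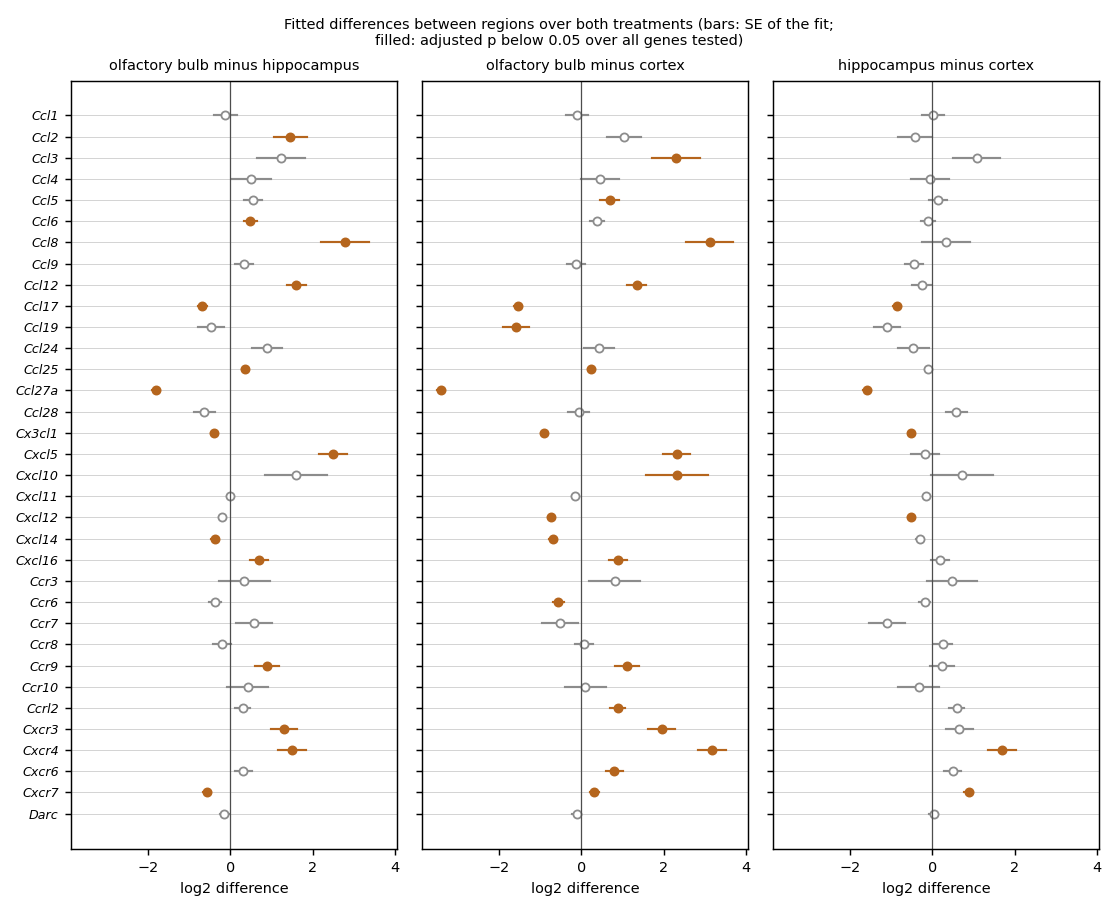
Fitted log2 difference between regions for 34 of the 35 tested genes (points) with the SE of the limma fit (bars), filled where the adjusted p over all genes tested was below 0.05. In the bulb Cxcr4, Ccl8, Cxcl5 and Cxcr3 lie to the right against the cortex and Ccl27a, Ccl19 and Ccl17 to the left; values against regions where a gene is below background are fitted and are given in the text as bounds.

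Markers of other cells also differed between regions, in directions that varied by list. Among all genes tested, 17.9% passed as higher and 24.5% as lower in the bulb than in the hippocampus. Against the cortex the shares were 17.4% and 27.4%. Of 11 markers of border macrophages and monocytes tested (13 on the array), 11 were higher in the bulb than in the hippocampus, 10 of them passing (median 1.39), and 11 were higher than in the cortex, 8 of them passing (median 1.12). Their summed signal, relative to the 75th percentile, was 4.56 (PAMAM) and 4.63 (saline) in the bulb, 2.25 (PAMAM) and 2.20 (saline) in the hippocampus, and 2.74 (PAMAM) and 1.71 (saline) in the cortex. Cd163 and H2-Aa were below background on all arrays, and Lyz2, a myeloid lysozyme, was higher in the bulb by 1.83 over the hippocampus (adjusted p = 0.000423) and by 1.43 over the cortex (adjusted p = 0.00131). Meningeal and fibroblast markers were higher in the bulb in 9 of 12 over the hippocampus and 12 of 12 over the cortex by the test, with summed signals of 41.9 (PAMAM) and 43.6 (saline) in the bulb, 25.6 (PAMAM) and 24.8 (saline) in the hippocampus, and 19.2 (PAMAM) and 10.1 (saline) in the cortex.

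Of 9 neutrophil genes 6 were tested, and 3 passed as higher in the bulb than in the hippocampus: S100a9 by 1.85 (limma, adjusted p = 7.35e-05), S100a8 by 1.61 (adjusted p = 0.00491) and Ltf. Ltf was well above background on the PAMAM bulb array alone. It entered the fit only through that array, so its call is no support for a direction. Camp (0.39), Mpo (-0.03) and Elane (-0.25) did not pass, and against the cortex S100a9 and S100a8 alone passed. The genes Ly6g, Ngp and Retnlg were below background on all arrays. The summed signal of the 9 was 2.19 (PAMAM) and 2.41 (saline) in the bulb, 1.99 (PAMAM) and 1.78 (saline) in the hippocampus, and 1.86 (PAMAM) and 1.80 (saline) in the cortex. The 18 microglia markers were read on all arrays, and more of them were lower than higher in the bulb, with 4 passing each way against the hippocampus (median -0.06) and 2 higher and 10 lower against the cortex (median -0.28). Their summed signal ran between 331 and 396. Against the hippocampus the bulb medians were -0.23 for 7 T and NK cell markers (0 higher and 1 lower by the test), 0.21 for 6 B cell markers (0 and 1), 0.11 for 12 endothelial markers (3 and 1), 0.12 for 9 astrocyte markers (4 and 3) and 0.26 for 6 red blood cell markers (1 and 0), and for 12 choroid plexus markers -3.70 (1 and 11). The part of these cells in the chemokine differences was not tested.

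Other genes of chemokine signalling split between the regions. Of 20 tested, 8 passed as higher and 6 as lower in the bulb than in the hippocampus (all genes 17.9% and 24.5%). Against the cortex 6 passed each way (all genes 17.4% and 27.4%). Ccbp2, the atypical receptor for inflammatory CC ligands now called Ackr2, was at -2.54 (PAMAM) and -2.20 (saline) in the bulb, -0.93 (PAMAM) and -0.65 (saline) in the hippocampus, and 0.29 (PAMAM) and 0.60 (saline) in the cortex. It was lower in the bulb than in the hippocampus by -1.58 (limma, adjusted p = 2.22e-05) and than in the cortex by -2.82 (adjusted p = 1.88e-06). Gpr182, an atypical receptor of vessel linings, was higher in the bulb by 1.34 over the hippocampus (adjusted p = 0.00196) and 1.52 over the cortex (adjusted p = 0.00102). Pf4, a platelet and macrophage CXC chemokine that the naming rule leaves out, was higher in the bulb by 1.15 (adjusted p = 0.00472) and 1.06 (adjusted p = 0.00647). Xcr1, Ppbp, Cmklr1 and Dock2 were below background on all arrays.

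Of 30 genes that induce chemokines or act beside them, 18 to 20 were detected on each array. The cytokines Tnf, Il1a, Il1b, Il6, Il17a, Ifng, Ifnb1 and Csf2 and the adhesion molecules Icam1 and Sele were below background on all arrays. Among the 20 tested, 2 passed as higher and 4 as lower in the bulb than in the hippocampus (all genes 17.9% and 24.5%). Against the cortex 5 passed as higher and 4 as lower (all genes 17.4% and 27.4%). The medians were -0.01 and -0.02, so the list as a whole had no direction towards the bulb. The 2 that passed as higher than in the hippocampus also passed against the cortex. Tlr4, the lipopolysaccharide receptor, was higher in the bulb by 2.09 over the hippocampus (limma, adjusted p = 0.000248) and 1.53 over the cortex (adjusted p = 0.00106). Stat3, which carries interleukin signals, was higher by 0.83 (adjusted p = 6.14e-05) and 0.62 (adjusted p = 0.000240).

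The comparison of PAMAM with saline asks what a single nasal dose left in chemokine expression a day later. Few of the genes differed between the arrays of a region. In the olfactory bulb, PAMAM was 2-fold or more above saline in 0 of 33 measured genes and as far below it in 0 (0.0518% and 0.207% of all genes measured there). In the hippocampus, 0 of 23 passed 2-fold either way (0.586% and 0.0676% of all genes), and in the cortex 0 of 21 were higher and 1 lower (0.349% and 0.419%). The median PAMAM minus saline difference was -0.01 (all genes -0.01) in the bulb, 0.02 (all genes 0.00) in the hippocampus and 0.13 (all genes 0.02) in the cortex. Repeated spots of a probe on the same array gave a difference an SD of 0.08 for brighter and 0.18 to 0.19 for dimmer probes, which leaves out labelling, hybridisation and animals.

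In the olfactory bulb the differences ran between -0.51 and 0.57. The highest 5 were Cxcl10 at 0.57 (-3.85 with PAMAM, -4.42 with saline), Ccr6 at 0.46, Ccl28 at 0.41, Ccl1 at 0.34 and Cxcl16 at 0.32. The lowest 5 were Ccr9 at -0.51, Ccl8 at -0.48, Cxcr3 at -0.40, Ccl17 at -0.35 and Ccrl2 at -0.26. To set these against other genes, all measured genes were divided by brightness into 5 equal groups, and the middle 95% of differences in a gene's own group was taken. Only Cxcl10, whose group ran between -0.73 and 0.56, and Ccr6, whose group ran between -0.32 and 0.29, lay outside. The Cxcl10 difference was 0.13 with normexp background correction and 0.05 with the median over its probes, the other of which was below background on all arrays. The ligands that were read in the bulb alone differed by -0.14 (Ccl2), -0.13 (Ccl3), -0.24 (Ccl4), -0.48 (Ccl8) and -0.08 (Cxcl5), besides Cxcl10. Receptors were above 0 in 2 of 11 in the bulb, 4 of 9 in the hippocampus and 6 of 7 in the cortex (medians -0.14, -0.02 and 0.15), and ligands in 11 of 22, 10 of 14 and 8 of 14, where 47.2%, 51.2% and 53.5% of all genes measured in these regions were above 0.

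In the hippocampus the range was -0.43 to 0.37. Among the highest were Ccl1 at 0.37, Ccr9 at 0.34, Ccl27a at 0.33 and Ccl6 at 0.28, and the lowest Cxcr4 at -0.43, Ccl19 at -0.30, Cxcr7 at -0.28, Ccrl2 at -0.27 and Ccl17 at -0.23. Ccl27a alone lay outside the middle 95% of its brightness group (-0.19 to 0.23), and its other probes gave 0.43 and 0.46. Choroid plexus markers were higher with PAMAM in 12 of 12 here (median 0.80; summed signal 279 with PAMAM, 172 with saline) and red blood cell markers in 6 of 6 (median 0.53), and the 2 hippocampal arrays lie in different slide rows. Their part in these differences was not tested.

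In the cortex Ccl19 was at -1.96 with PAMAM and -0.55 with saline, a difference of -1.41 that was the only one past 2-fold among the genes described here. The second Ccl19 probe, shown above, gave 0.16, so the direction was that of 1 probe. The next lowest were Ccl28 at -0.30, Ccrl2 at -0.22, Ccl5 at -0.15 and Cxcl11 at -0.08. The highest were Ccl9 at 0.55, Cxcr6 at 0.47, Cxcl16 at 0.45, Darc at 0.40 and Ccl6 at 0.38, each within the middle 95% of its brightness group. The upstream-end probe of Cxcl12 was at -0.51 with PAMAM and -1.11 with saline (0.59), where the used probe gave 0.13. Ccl27a, Cx3cl1 and Cxcl14 differed by -0.02, 0.21 and 0.24.

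**Figure D4:**
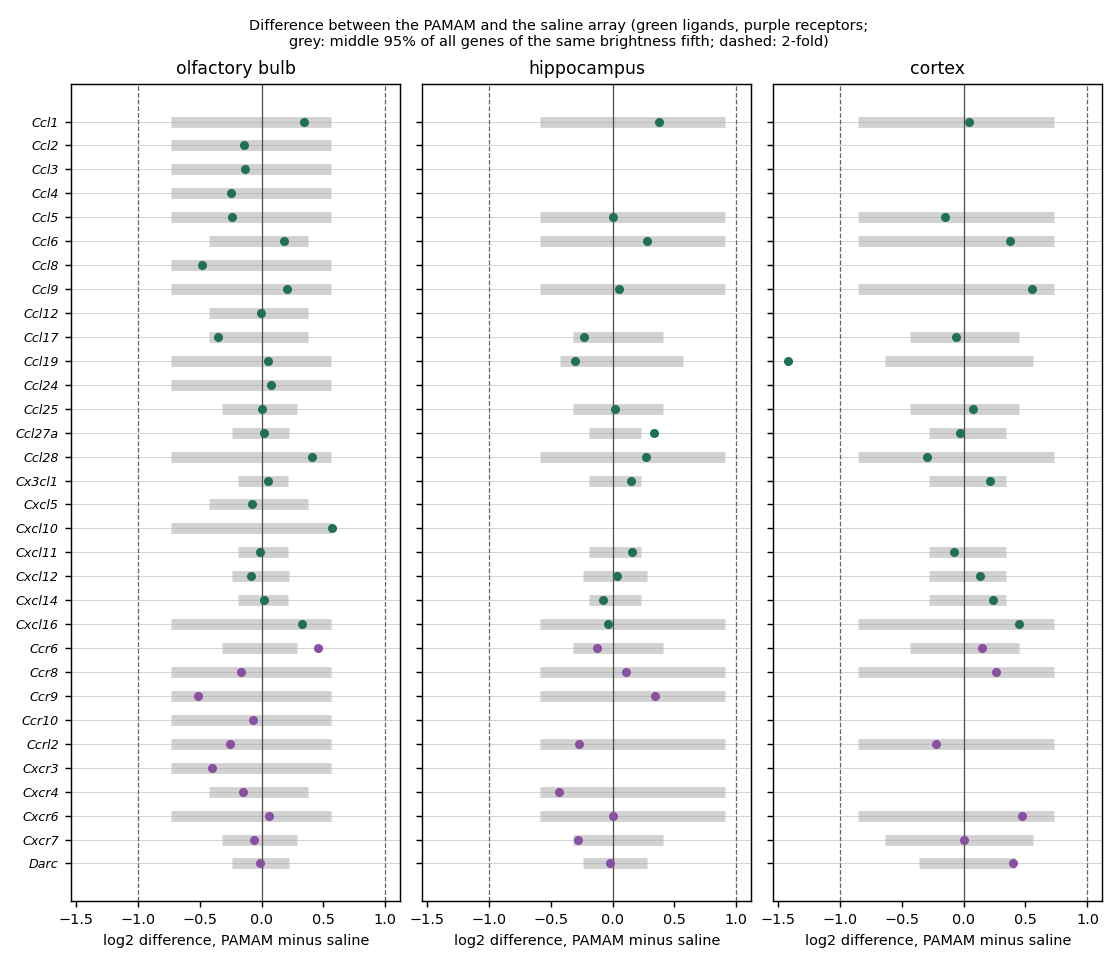
PAMAM minus saline log2 difference of the genes shown in the heat map that were detected on both arrays of a region (green ligands, purple receptors), over grey bars for the middle 95% of all measured genes of the same brightness group; dashed lines mark 2-fold. Points cluster near 0, with Ccl19 in the cortex at -1.41 the only one past a dashed line; it, Ccl27a in the hippocampus, and Cxcl10 and Ccr6 in the olfactory bulb lie outside their bars.

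Where only 1 array of a pair read a gene, a bound was taken in place of a difference, and none reached 2-fold (of all such genes, 1.7% of the bulb's, 12.9% of the hippocampal and 6.27% of the cortical ones had a bound of 2-fold or more higher, and 4.09%, 1.17% and 11.5% lower). Ccl24, an eosinophil attractant, was at least 1.70-fold higher with PAMAM in the hippocampus (-4.29 with PAMAM, not well above background with saline) and at least 1.16-fold higher in the cortex. In the cortex Ccr10, Ccr9 and Ccl12 were also read with PAMAM only, at bounds of 1.37, 1.33 and 1.23. Ccl12 and Cxcr3 were read with saline only in the hippocampus, at bounds of at least 1.04-fold and 1.12-fold lower. In the bulb Ccr7 was read with PAMAM only, at least 1.03-fold higher, and so was Ccr3, for which no fold can be given.

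Markers of bordering tissue differed between the PAMAM and saline arrays of the cortex, and the values stand here beside the cortical differences. Meningeal and fibroblast markers were higher with PAMAM in 12 of 12 (median 0.79), choroid plexus markers in 8 of 9 measured (median 1.22; summed signal 24.4 with PAMAM, 5.17 with saline) and red blood cell markers in 5 of 5 (median 0.63). Border macrophage and monocyte markers were higher in 8 of 9 (median 0.63), with Cd74, which chaperones antigen-presenting molecules, at 1.73 and Pf4 at 1.08. Microglia markers differed by a median of 0.08, endothelial markers by 0.12, astrocyte markers by 0.04 and T and NK cell markers by -0.05, and the 1 B cell marker measured by -0.31. Regional markers moved as well: olfactory bulb markers were lower in the PAMAM cortex array in 11 of 14 (median -0.31), with Calb2, Trh and Dlx6 past 2-fold at -1.06, -1.04 and -1.01. Hippocampus markers were higher in 8 of 10 (median 0.18), with Spink8 at 0.81, Cpne7 at 0.65 and Lct at 0.62, and cortex markers were lower in 7 of 10 (median -0.05). In the olfactory bulb the marker lists of bordering tissue had medians of -0.02 (meningeal), -0.03 (choroid plexus), 0.07 (red blood cell) and 0.13 (border macrophage). The part of these tissues in the chemokine differences was not tested.

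Taking the 3 regions together, the limma fit gave the only test of PAMAM that the arrays allow. It called 0 of the 35 genes (0% of 25673 genes called higher and 0% lower), with 2 genes at an unadjusted p under 0.05. These were Cx3cl1 (0.14 ± 0.05, adjusted p = 0.779; single differences of 0.05 in the bulb, 0.15 in hippocampal and 0.21 in cortical tissue) and Ccl17 (-0.21 ± 0.08, adjusted p = 0.782; -0.35, -0.23 and -0.06). Over all genes 1600 had an unadjusted p under 0.05. The other lists gave 0 calls as well, among them 20 genes of chemokine signalling (12 above 0, median 0.04) and 20 inducers of chemokine genes (12 above 0, median 0.04).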

How the data were processed

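Per the file headers, the authors scanned 1-colour Agilent arrays (design 028005) and deposited spot intensity made with Agilent Feature Extraction 10.7.3.1. They also deposited a table of log2 values; set against the scanner files it equalled the 75th-percentile-scaled log2 signal minus each probe's median over the arrays (r between 0.999867 and 0.999966 over 29245 probes, largest residual 0.0233), so scale, centring and direction were settled from the values. Its column medians were -0.06 (PAMAM) and -0.09 (saline) in the olfactory bulb, 0.03 (PAMAM) and -0.05 (saline) in the hippocampus and 0.03 (PAMAM) and 0.04 (saline) in the cortex.

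Levels here are log2 of the processed signal less the 75th percentile of an array's non-control spots. Outlier-marked spots were left out (15 probes were lost in this way, none of them a chemokine probe), and the spots of a probe were averaged. Detection followed the software's well-above-background mark. A difference within a region was called at 2-fold, with both arrays detected. Regions and treatment were fitted with limma 3.58.1 (R 4.3.3; lmFit and eBayes with a trend, 2 residual degrees of freedom) and adjusted by Benjamini-Hochberg. On simulated data of 25673 genes modelled on bulb against hippocampus, the fit recovered 8% of changes of 0.5, 28% of 1, 74% of 2 and 84% of 3 (log2), with 5 false calls. The simulation changed few genes, whereas 17.9% and 24.5% of all genes passed as higher and lower in the real contrast. The adjustment is therefore stricter in the simulation, and these shares do not give the power of the region tests.

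The genes, the 15 lists of other genes and the naming rule (genes read on all arrays, PAMAM differences or bounds of 2-fold or more, the 5 highest and 5 lowest PAMAM differences a region, the 10 largest calls a region contrast, and genes whose probes disagree) were chosen with earlier results of these data known. Of the 56 genes 53 matched RefSeq by accession. Alternatives were quantile normalisation, normexp background correction with an offset of 50 and the median over a gene's probes. Detection and PAMAM differences were also taken with other detection rules, brighter probes only and the deposited log2 table. The limma fits were also run on genes detected on all arrays, with no variance trend and leaving out each array. The number of arrays limits the precision. The values of 1 gene are not reported here; it is counted in the totals.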

Additional observations from a re-analysis of the deposited data

Results flagged for a closer look

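Ccr9 moved in opposite directions in 2 regions. Its PAMAM minus saline difference was -0.51 in the olfactory bulb (-3.20 with PAMAM, -2.68 with saline) and 0.34 in the hippocampus (-3.65 with PAMAM, -3.99 with saline). With 1 array a group the difference between the regions was not tested. Both values lie within the middle 95% of genes of the same brightness there, and the gene's other probe was below background on all arrays.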

How the results depend on the processing

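The precision rests on 1 array a group, and 21 of the 56 genes were below background on every array. No paired analysis was possible because the labels give no replicate numbers; region is already a term of the fit. A fit without an array leaves a region with a lone array, which is assumed to vary like the others.

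Members at least 2-fold different between PAMAM and saline numbered 1 in place of 0 in the olfactory bulb (Ccl1, 1.12, whose second probe was well above background on the PAMAM array only) and 0 in place of 1 in the cortex with the median over all probes, where Ccl19 turned to 0.16. With detection as positive and significant against background, they numbered 3 in place of 0 in the hippocampus and 3 in place of 1 in the cortex, and the members detected on both arrays 37 in place of 23 and 33 in place of 21. The cause of these changes was not tested. The medians over the members moved by less than 0.1 under each alternative run.

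With the fit restricted to genes detected on all 6 arrays, which leaves 21 of the 35 members, the calls were 9 in place of 15 for bulb against hippocampus and 13 in place of 21 for bulb against cortex. Without a variance trend 1 in place of 6 was called for hippocampus against cortex, for which the cause was not tested. Leaving out each array gave 7 to 19 calls for bulb against hippocampus, 10 to 19 for bulb against cortex, 4 to 7 for hippocampus against cortex and 0 to 0 for PAMAM against saline. Without the saline bulb array the first 2 counts were 7 and 10, without the PAMAM bulb array 8 and 13, and without the saline hippocampus array 7 and 19. Of 446 refits of single region calls, 338 kept the call and the direction, 108 lost the call and none turned round.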
